A study of Mus musculus with 4 samples.

Results

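Thymic epithelial cells (TECs) of the cortex carry genes that are grouped here under antigen processing. The 6 described are Psmb11, Prss16, Tbata, Ly75, Enpep and Cd83. They were taken by symbol, 6 of the 32285 genes listed for each library. The assay was 3′ RNA-seq of single cells in droplets, applied to CD45-negative thymic stroma of untreated C57BL/6 mice aged 6 months, with 2 libraries from wild-type mice (WT 1 and WT 2) and 2 from mice homozygous for the LacZ allele of Foxn1 (Z/Z 1 and Z/Z 2). The LacZ allele is hypomorphic, so that the function of Foxn1, the transcription factor that directs TEC differentiation, is reduced but not abolished. It is a germ-line allele and is carried by every cell of a Z/Z mouse. Each digest pooled the thymi of several mice, haematopoietic cells were then removed by bead depletion of CD45 and a sort followed, so the cell numbers reflect digestion and sorting as well as the tissue. The labels do not say whether the 2 libraries of a group came from separate pools, and the p-values below measure the spread between these libraries, which may be technical.

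Cortical TECs (cTECs) present self-peptides to CD4+CD8+ thymocytes, and the peptides they present decide which T cell receptors are selected. Psmb11 encodes β5t, the catalytic subunit that turns the proteasome of cTECs into the thymoproteasome and so alters the peptides loaded on MHC class I. Prss16 encodes a thymus-specific serine protease of the endosomal and lysosomal compartment that contributes to peptides on MHC class II. Ly75 encodes the endocytic receptor DEC-205 (CD205) and Enpep the aminopeptidase Ly51, both of them surface markers used to sort cTECs. Cd83 encodes a membrane protein that stabilizes MHC class II by opposing the ubiquitin ligase MARCH8. Tbata, also called Spatial, is a stromal gene with a reported part in TEC proliferation.

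The promoters of 4 members were listed by RefSeq (GRCm38.p6), and those of Psmb11 and Enpep are shown because Foxn1 is the gene altered here and these 2 windows held its recognition core. Each run holds the 250 bases before the annotated start, read 5′ to 3′ on the gene's strand. Capitals mark the 5-base core of FOXN1 recognition, GACGC or its complement GCGTC.
Psmb11, chr14:54625060-54625309, plus strand: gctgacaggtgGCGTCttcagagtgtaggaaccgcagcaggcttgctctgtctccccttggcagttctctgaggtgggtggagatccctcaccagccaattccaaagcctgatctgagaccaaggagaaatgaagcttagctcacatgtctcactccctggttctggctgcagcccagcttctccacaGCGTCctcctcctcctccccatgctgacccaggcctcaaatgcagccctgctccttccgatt
Enpep, chr3:129332750-129332999, minus strand: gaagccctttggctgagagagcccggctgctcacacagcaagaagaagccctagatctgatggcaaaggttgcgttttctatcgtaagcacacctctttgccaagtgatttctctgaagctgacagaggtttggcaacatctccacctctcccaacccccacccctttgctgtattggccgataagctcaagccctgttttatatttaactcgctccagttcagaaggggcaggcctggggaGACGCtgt
The Psmb11 window held 2 matches, which began 239 and 62 bases before the start. Enpep held 1 match, 8 bases before the start, and the windows of Tbata and Ly75 held 0. Among all 32851 promoters of this length, 22.6% held at least 1 match and 5.86% at least 2, so a match is common and is given as a description only. On the GENCODE vM21 annotation of the same genome build the genes lie at chr14:54621433-54629556 (Psmb11), chr13:22002173-22009742 (Prss16), chr10:61171954-61188841 (Tbata), chr2:60292103-60383303 (Ly75), chr3:129269175-129332720 (Enpep) and chr13:43784775-43803132 (Cd83). A gene on the opposite strand overlaps Ly75 (Gm13571) and Enpep (Gm42628). No gene overlaps any of the 6 members on its own strand.

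The libraries held between 8468086 (WT 2) and 50705511 UMIs (Z/Z 1) in 1192 to 5558 called cells, where a UMI is 1 captured transcript molecule. WT 1 and WT 2 shared 202 cell barcodes, 16.9% of the WT 2 cells, and Z/Z 1 and Z/Z 2 shared 249, up to 5.53% of a library. Values without these cells are given beside the results they change. After filtering, 553, 104, 1962 and 1549 TECs remained in WT 1, WT 2, Z/Z 1 and Z/Z 2. The TECs of the WT libraries were deeper, with median UMI counts of 16692 and 17716.5 per cell against 6743.5 and 7051 in Z/Z. Foxn1, the targeted gene, was detected at 84.3 and 112 CPM (UMIs of the gene over all UMIs of the set, scaled to the same total in every set) in WT TECs and at 53.8 and 71.2 CPM in Z/Z TECs (log2 fold change −0.64 ± 0.22 (SE), adjusted p = 0.0922, edgeR quasi-likelihood test). These 3′ counts do not tell the LacZ allele from the wild-type allele.

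TEC clusters were named from marker genes, with all members held out of both the clustering and the naming. The cluster named cTEC-like held Ccl25, Dll4, Slc46a2, Ctsl and Cxcl12 and consisted of 45, 5, 29 and 59 cells in WT 1, WT 2, Z/Z 1 and Z/Z 2. In all, 5 of the 6 members had their highest mean level there, Enpep being the exception. Levels are CPM over the summed cells of a class and library, averaged over libraries with at least 10 cells, and each order is within 1 gene. Psmb11 averaged 511 CPM in cTEC-like cells (range 240 to 1029 over 3 libraries), and its next level was 27.6 CPM in an unnamed cluster led by Rrad and Gm4841. Prss16 averaged 2501 CPM (range 1034 to 4104) against 156 CPM in the next cluster, which was led by Gpc5 and Fat3. The lowest cTEC-like library of both genes lay above the highest library of every other cluster, so these 2 enzymes had no overlap with their neighbours. Below that step the unnamed clusters of Psmb11 overlapped each other in range.

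Tbata averaged 3583 CPM in cTEC-like cells (range 1058 to 6679) and was second in mTEC2-like cells, the Aire-expressing medullary TECs, at 423 CPM (range 304 to 591). The third place was taken by mTEC1-like cells at 218 CPM, and their range of 130 to 278 CPM did not reach that of mTEC2-like cells. Ly75 was spread more broadly over the TECs. It averaged 659 CPM in cTEC-like cells (range 362 to 1231), 324 CPM in a cluster led by Grip1 and Klhl29 and 256 CPM in a cluster led by Fst and Gm26802. The range of the Grip1 cluster (296 to 351 CPM) ended just under the lowest cTEC-like library, and the ranges of the Grip1 and Fst clusters overlapped. Cd83 averaged 166 CPM in cTEC-like cells (range 47.2 to 384) and 38.5 CPM in mTEC2-like cells (range 26.8 to 51.5), so these neighbours overlapped.

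Enpep departed from the other members. Its highest mean, 136 CPM, was in aaTEC2-like cells, named after the age-associated TECs with Pdpn and Vim transcripts and few Epcam transcripts. A cluster of 947 cells, nearly the size of this class in each library, missed the epithelial marker rule. It was counted as TECs by a separate rule on Pdpn, Vim, H2-Aa, Epcam and Pdgfra, so its epithelial identity rests on that rule. aaTEC2-like cells made up 28.2% and 24.7% of the TECs of Z/Z 1 and Z/Z 2. The 3 libraries with at least 10 aaTEC2-like cells gave 75.4 CPM in WT 1 (12 cells, 9 UMIs), 198 in Z/Z 1 and 134 in Z/Z 2. Mean levels of 106 CPM in cTEC-like and 104 CPM in basal or goblet-like cells followed, and all these ranges overlapped. The order of the first 2 classes differed by genotype. In WT 1, Enpep stood at 210 CPM in cTEC-like cells, above the 75.4 CPM of aaTEC2-like cells. In Z/Z the means were 53.1 CPM in cTEC-like and 166 CPM in aaTEC2-like cells. Fibroblast markers, 5 of 5 detected in both Z/Z libraries, summed to 647 to 1499 CPM in aaTEC2-like cells against 110 to 235 CPM in all TECs. Mural markers summed to 605 to 668 CPM against 200 to 308 CPM. The 6 epithelial markers were all detected but summed to 276 to 748 CPM, below the fibroblast sum in each library, against 7495 to 11021 CPM in all TECs. Enpep itself was detected in fibroblasts (22.8 to 52.9 CPM) and in mural cells (24.4 to 61.9 CPM), and the part of these cell types in the aaTEC2-like level was not tested.

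**Figure D1:**
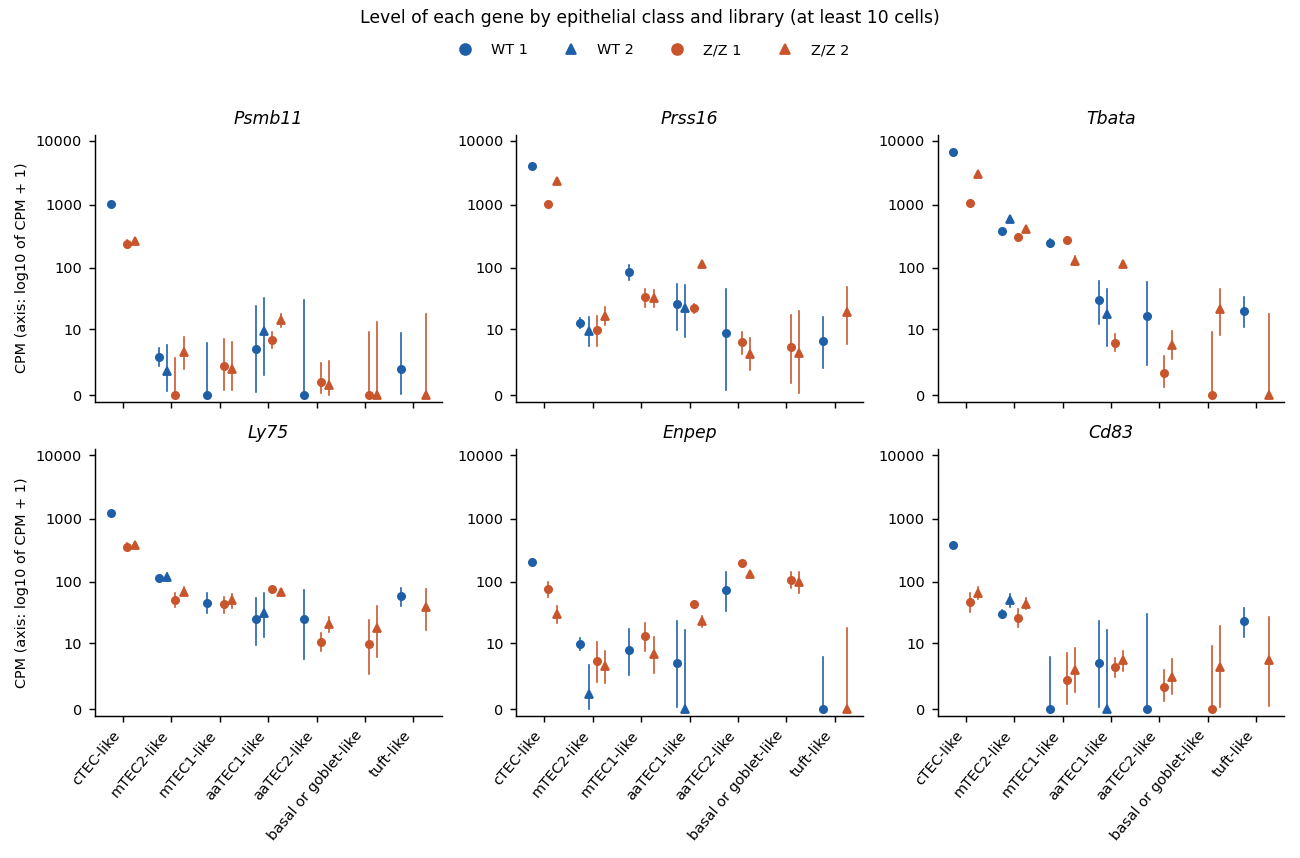
Level of each of the 6 genes (log scale of CPM + 1) in named epithelial classes, with 1 point per library of at least 10 cells. WT 2 (5 cells) is thus absent from the cTEC-like class. Unnamed clusters are not drawn. The cTEC-like mean is highest for Psmb11, Prss16, Tbata, Ly75 and Cd83, with points of Cd83 overlapping those of mTEC2-like cells, and the aaTEC2-like mean is highest for Enpep.

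Members were often found together in single cTEC-like cells. Every cell was thinned to 2000 UMIs for this count, which removes the difference in depth between libraries. In 1 such draw, at least 2 members were detected in 83.8% of 136 cTEC-like cells and in 6.92% of all 4063 TECs. The number of members expected per cTEC-like cell at this depth, computed from its counts without a draw, averaged 3.82 and 3.32 in WT, the latter over the 5 cells of WT 2, and 2.30 and 2.36 in Z/Z. Both Z/Z libraries thus stood below both WT libraries. Prss16 was the member expected in the most cells of WT 2, Z/Z 1 and Z/Z 2 (94.5%, 71.9% and 79.6%), and Tbata in WT 1 (91.5%, beside 88.6% for Prss16).

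The cTEC-like class was then compared between genotypes, which asks whether the genes differed within the cells that carry them most. This comparison rests on 5 cells of WT 2 and was added after the data had been seen. All 6 members were lower in the mean of the Z/Z libraries. Cd83 passed the test, 1 of 6 members against 2.1% of the 9394 genes tested. Its level was 394 and 169 CPM in WT and 47.2 and 67.0 CPM in Z/Z (CPM here and in all tests scaled by TMM factors). The log2 fold change was −2.37 ± 0.44 (SE), with an adjusted p of 0.0242. The WT and Z/Z libraries did not overlap. At 2000 UMIs a cell, Cd83 was expected in 40% and 25.2% of cTEC-like cells of WT and in 7.85% and 8.08% of those of Z/Z, but in sums of thinned cells it was under the count filter and could not be tested. Without cells of shared barcodes the change was −2.16 (adjusted p = 0.0260), and without WT 1 it was −1.54 (adjusted p = 0.0582). Without Z/Z 1 or Z/Z 2 the adjusted p was 0.793 and 0.163.

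Psmb11 stood at 1058 and 609 CPM in WT cTEC-like cells and at 241 and 263 CPM in Z/Z, again with no overlap, and missed the threshold (−1.74 ± 0.40 (SE), adjusted p = 0.0552). Without shared barcodes, which left 2 cells in WT 2, the value was −0.74. Ly75 had 1265 and 740 CPM in WT and 362 and 383 CPM in Z/Z (−1.44 ± 0.40 (SE), adjusted p = 0.107). These 2 genes showed separated groups with an unadjusted p of 0.00123 and 0.00424. Tbata had 6865 and 4245 CPM in WT and 1059 and 3007 CPM in Z/Z (−1.45, adjusted p = 0.263). Prss16 had 4219 and 2521 CPM in WT and 1035 and 2361 CPM in Z/Z (−0.99, adjusted p = 0.438). Enpep had 216 and 75.0 CPM in WT and 75.9 and 30.3 CPM in Z/Z (−1.68, adjusted p = 0.164), the only member whose groups overlapped. Leaving out WT 2, the library of 5 cells, brought all 6 members past the threshold, and leaving out WT 1 left 0. The class was also sensitive to the clustering: at resolution 0.5 it held 66, 8, 108 and 186 cells, and Psmb11, Ly75, Enpep and Cd83 passed.

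Markers of thymocytes did not separate the genotypes in this class. Their 7 genes summed to 592 and 96.9 CPM in WT, with 5 of 7 detected in WT 2, and to 369 and 500 CPM in Z/Z. Markers of other haematopoietic cells summed to 70.2, 0, 31.5 and 36.8 CPM, with Itgax at 0 in all 4 libraries. Cd83, also an activation marker of dendritic and B cells, stood at 83.2 to 358 CPM in the haematopoietic cells captured. Their part in the Cd83 difference was not tested.

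**Figure D2:**
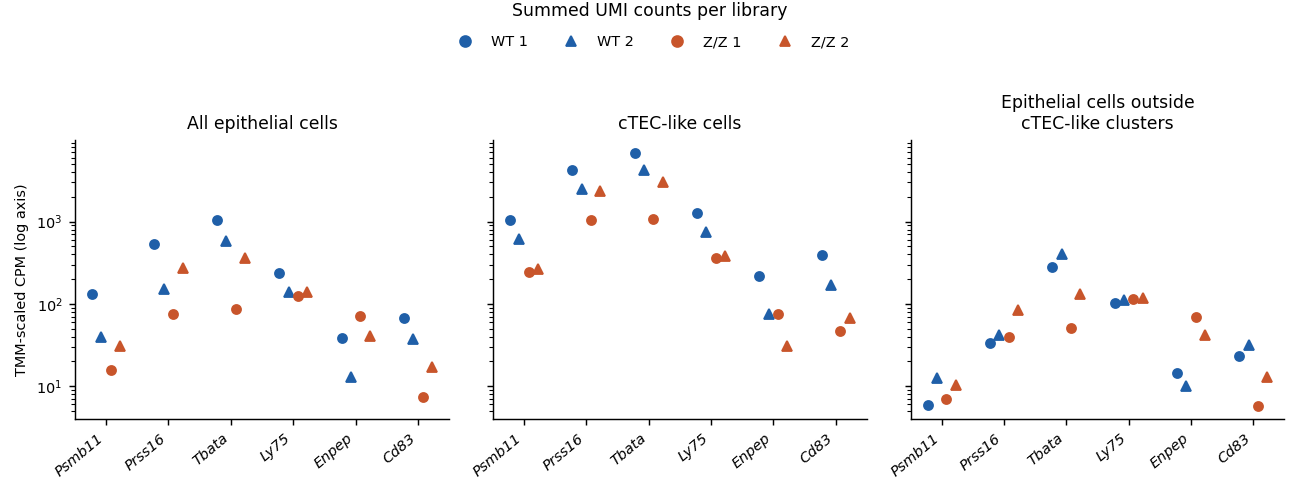
Level of each gene (TMM-scaled CPM, log scale) in sums over all TECs, cTEC-like cells and other cells, with 1 point per library coloured by genotype. In cTEC-like cells the Z/Z points lie below the WT points for every gene but Enpep, where Z/Z 1 and WT 2 meet at 75.9 and 75.0 CPM.

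Summed over all TECs, Cd83 was again the member that passed the test, at 66.5 and 37.8 CPM in WT and 7.31 and 17.2 CPM in Z/Z (log2 fold change −2.11 ± 0.48 (SE), adjusted p = 0.0352). This is 1 of 6 members against 21.5% of the 18870 genes tested, so the number of members called was not above the background. In such sums, fewer cells of a type and less RNA per cell cannot be told apart. Psmb11 had 130 and 39.1 CPM in WT and 15.5 and 31.0 CPM in Z/Z (−1.90 ± 0.61 (SE), adjusted p = 0.0797). Tbata had 1057 and 578 CPM in WT and 87.6 and 365 CPM in Z/Z (−1.86, adjusted p = 0.109). In both genes the Z/Z libraries lay below the WT libraries without passing. Prss16 (527, 152, 76.0 and 269 CPM) and Ly75 (238, 140, 125 and 139 CPM in WT 1, WT 2, Z/Z 1 and Z/Z 2) gave adjusted p-values of 0.385 and 0.202. Enpep was the member with a positive value (+1.05 ± 0.51 (SE), adjusted p = 0.194), from 38.0 and 12.9 CPM in WT to 70.3 and 40.6 CPM in Z/Z.

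The Cd83 call over all TECs did not hold in every subset of the data. Without shared barcodes the change was −1.84 (adjusted p = 0.205), without WT 1 −1.63 (adjusted p = 0.0805), and without Z/Z 1 −1.61 (adjusted p = 0.127). Without TECs that held a UMI of a T cell marker it was −1.63 (adjusted p = 0.145). The thymocyte markers summed to 117, 51.3, 24.7 and 83.1 CPM in TECs of the 4 libraries, and those of other haematopoietic cells to 47.2, 40.5, 7.77 and 29.3 CPM, both lowest in Z/Z 1. Their part in the lower Cd83 was not tested.

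cTEC-like cells were a small share of the TECs and gave most transcripts of some members. They made up 8.14%, 4.81%, 1.48% and 3.81% of TECs in WT 1, WT 2, Z/Z 1 and Z/Z 2. They held 96.1%, 69.1%, 56.2% and 69.1% of the Psmb11 UMIs and 94.6%, 73.5%, 49.3% and 71.4% of the Prss16 UMIs. The share was lower for Ly75 (62.9%, 23.4%, 10.5% and 22.4%). For Enpep it was 67.4% and 25.8% in WT against 3.91% and 6.07% in Z/Z, where aaTEC2-like cells gave 47.9% and 43.1%. For Cd83 it was 70.2% in WT 1 but 19.8% in WT 2, where mTEC2-like cells gave 79.1%. mTEC2-like cells also gave 59.4% of the Tbata UMIs of WT 2. The sum over all TECs thus drew on different cells for each gene and library.

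**Figure D3:**
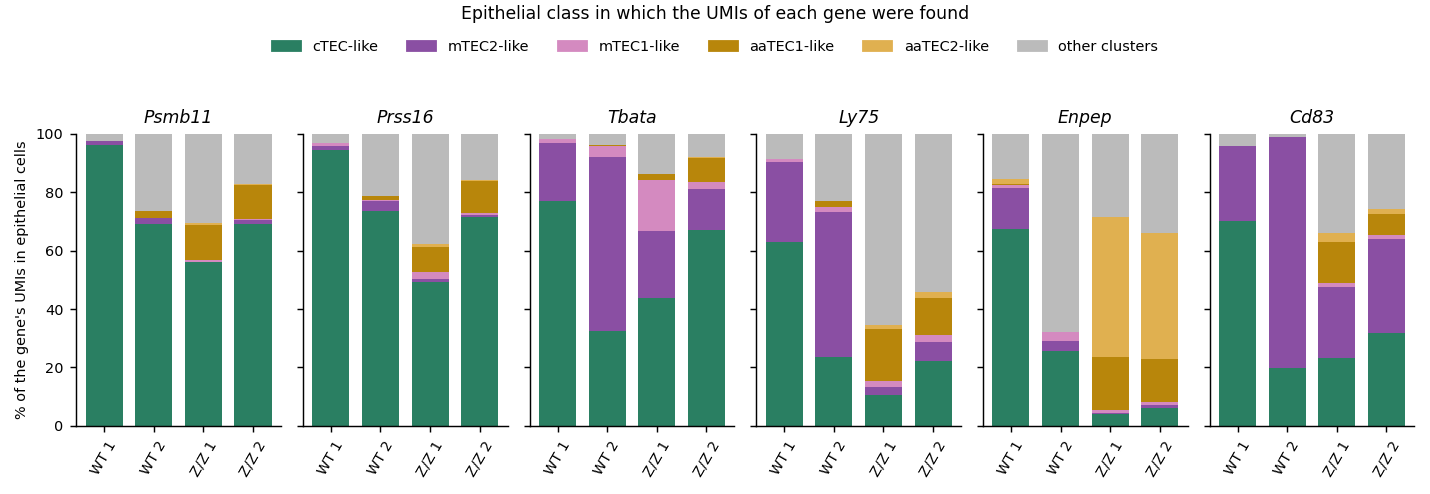
Share of each gene's TEC UMIs (percent) that came from each epithelial class, with 1 bar per library. cTEC-like cells gave 49.3% to 96.1% of Psmb11 and Prss16 UMIs, and aaTEC2-like cells gave 47.9% and 43.1% of Enpep UMIs in the Z/Z libraries.

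Outside the cTEC-like class, 2 of 6 members passed the test against 23.1% of the 18737 genes tested, and they moved in opposite directions, as 10.6% of all genes rose and 12.5% fell. Enpep rose from 14.4 and 9.99 CPM in WT to 69.4 and 41.5 CPM in Z/Z (log2 fold change +2.14 ± 0.34 (SE), adjusted p = 0.0166). Tbata, at 284 and 407 CPM in WT and 50.6 and 131 CPM in Z/Z, fell (−1.93 ± 0.48 (SE), adjusted p = 0.0428). Both genes had WT and Z/Z libraries that did not overlap. Cd83 had 23.0 and 31.7 CPM in WT and 5.76 and 12.8 CPM in Z/Z (−1.55, adjusted p = 0.0587). Psmb11 (−0.02), Prss16 (+0.73) and Ly75 (+0.12) gave adjusted p-values of 0.221 or more. The mix of cells outside the class differed strongly, since mTEC2-like cells were 272 of 553 TECs in WT 1 and 57 of 1962 in Z/Z 1. When aaTEC2-like cells were left out of the sum over all TECs, Enpep gave +0.37 (adjusted p = 0.632). That sum keeps the cTEC-like cells, which held 67.4% of the Enpep UMIs of WT 1. A sum without both classes was not run, so the part of aaTEC2-like cells in the Enpep rise outside the cTEC-like class was not tested. Cd83 still passed in the sum without aaTEC2-like cells (−1.96, adjusted p = 0.0463), 1 of 6 members against 18.2% of genes. That Cd83 call was lost without shared barcodes (−1.65, adjusted p = 0.247), without cells holding a T cell marker UMI (−1.42, adjusted p = 0.209) and without WT 1, Z/Z 1 or Z/Z 2 (adjusted p of 0.0631 to 0.174). The 2 calls outside the cTEC-like class were lost without shared barcodes, with values of +1.46 (adjusted p = 0.232) for Enpep and −2.28 (adjusted p = 0.172) for Tbata. Without Z/Z 1 they were +1.76 (adjusted p = 0.0731) and −1.38 (adjusted p = 0.0928), and without WT 2 the Tbata value was −1.62 (adjusted p = 0.0577).

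**Figure D4:**
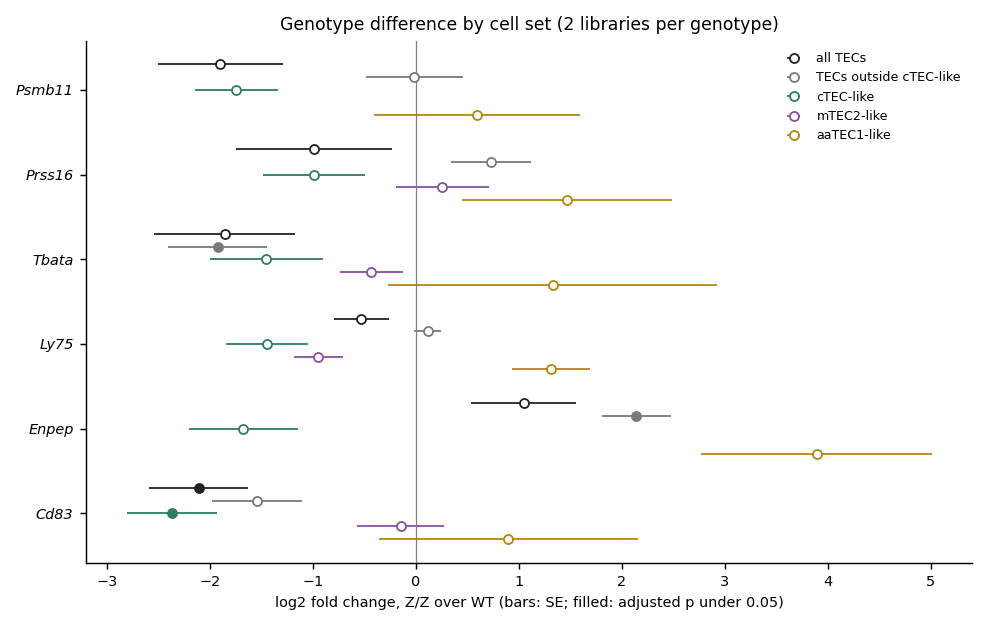
Log2 fold change of Z/Z over WT for each gene in each set of cells, with bars of 1 SE and filled points where the edgeR adjusted p was under 0.05. Enpep lies at +2.14 in TECs outside the cTEC-like class and at −1.68 within it, while Cd83 lies below 0 in both.

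The genotype effect in cTEC-like cells was compared with that in the other TECs of the same libraries, in a fit that kept each library as a block. The effect on Enpep differed by −3.64 on the log2 scale (cTEC-like minus other TECs, adjusted p = 0.000766) and that on Prss16 by −1.54 (adjusted p = 0.0376), 2 of 6 members against 3.33% of the 13583 genes tested. The other TECs were not the same mix of classes in both genotypes. Among all TECs, aaTEC2-like cells were 2.17% and 0% in WT 1 and WT 2, and 28.2% and 24.7% in Z/Z 1 and Z/Z 2. The part of this mix in the differences from the other TECs was not tested. Such fits were run on the full data only, without leaving out shared barcodes or any library. In cTEC-like cells alone, the Prss16 value reversed in sign without shared barcodes. For Ly75 (−1.35, adjusted p = 0.0619), Psmb11 (−1.65, adjusted p = 0.0847), Tbata (+0.63, adjusted p = 0.501) and Cd83 (−0.65, adjusted p = 0.617) no difference was detected at this depth. Against aaTEC1-like cells alone, Enpep differed by −5.33 (adjusted p = 0.0344), a fitted value that depends on the prior count because WT aaTEC1-like cells held 1 and 0 UMIs. This was 1 of 6 members tested against 0.533% of 10508 genes. Against mTEC2-like cells 0 members passed by edgeR, where 1.26% of 13101 genes did, with unadjusted p-values under 0.05 for 3 of them, Prss16, Tbata and Cd83.

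Within mTEC2-like cells, 0 of the 4 members tested passed by edgeR or DESeq2. Of all 12522 genes, 0.016% passed by edgeR and 1.69% by DESeq2. Ly75 had 118 and 124 CPM in WT and 51.6 and 72.9 CPM in Z/Z (−0.95 ± 0.24 (SE), adjusted p = 0.270, unadjusted p = 0.00992), with no overlap, and was the 1 member with an unadjusted p under 0.05. Tbata (385, 610, 302 and 432 CPM) and Cd83 (30.9, 53.1, 26.6 and 47.1 CPM) had groups that overlapped. Psmb11 and Enpep were under the count filter there. Within aaTEC1-like cells, age-associated TECs with Cldn3 and Plet1, 0 of 6 members passed by edgeR or DESeq2. Of all 11966 genes, 0.00836% passed by edgeR and 0.727% by DESeq2. Enpep was 4.38 and 0 CPM in WT (16 and 10 cells) and 43.8 and 23.6 CPM in Z/Z (259 and 187 cells), and Ly75 was 26.3 and 32.1 CPM against 75.6 and 69.1 CPM. Both had adjusted p = 0.380 and were the 2 members with an unadjusted p under 0.05. With 1 Enpep UMI in WT 1 and 0 in WT 2, no fold is given for it here.

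Shares of TECs with a UMI gave the same order of genotypes for most members. With each TEC thinned to 2000 UMIs, which left out 8 shallower cells in WT and 97 in Z/Z, Tbata was found in 26.2% ± 1.65 (SD, n = 2 libraries) of WT and 4.92% ± 3.22 of Z/Z TECs. Cd83 was found in 4.03% ± 0.264 and 1.05% ± 0.606, and Psmb11 in 4.26% ± 3.31 and 1.28% ± 0.565. Enpep went the other way, with 3.55% ± 0.944 in WT and 10.3% ± 3.05 in Z/Z. Prss16 (9.05% ± 3.28 and 6.46% ± 2.46) and Ly75 (17.8% ± 2.06 and 17.3% ± 1.09) had groups that overlapped. These shares and SDs come from 1 random draw, so the SDs include the spread of the draw. Computed without a draw, the expected Cd83 share was 5.67% and 3.95% in WT 1 and WT 2. In Z/Z 1 and Z/Z 2 it was 0.772% and 1.63%. With 2 libraries a group, the exact permutation test (two-sided) cannot go below p = 0.333, which is the value that Psmb11, Tbata, Enpep and Cd83 reached. With shared barcodes left out, Psmb11 and Cd83 overlapped, with 1.92% in WT 2 for both against 1.95% and 2.44% in Z/Z 2. The groups of Prss16, Tbata, Ly75 and Enpep did not. Psmb11 and Cd83 were at 0% in WT 2 and overlapped again without cells holding a T cell marker UMI, unlike Tbata and Enpep. At 1000 UMIs a cell Cd83 also overlapped (0% in WT 2, 0.459% and 0.839% in Z/Z), but not at 4000. Unthinned, the difference was −40.6 percentage points for Tbata against −21.2 when thinned, and −13.0 against −0.48 for Ly75. The TECs also differed in their mix of classes. mTEC2-like cells, second to cTEC-like cells in Tbata level, were 49.2% and 45.2% of TECs in WT 1 and WT 2. In Z/Z 1 and Z/Z 2 they were 2.91% and 5.10%. The part of this mix in the shares was not tested.

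Cells that should lack these genes gave the background. In thinned fibroblasts, the share with a UMI was 0% to 0.521% for Psmb11, 0% to 1.02% for Prss16, 0% to 2.37% for Tbata, 0.415% to 0.68% for Ly75 and 0% to 1.04% for Cd83. Fibroblasts had median depths of 10299 to 14763.5 UMIs before thinning. The Cd83 share of Z/Z 1 TECs (0.623%) lay within the exact 95% interval of the fibroblast share in the same library (0.332%, interval 0.0904% to 0.847%). That interval covers the counting of cells in 1 library and is no test of a difference. At full depth, Cd83 in Z/Z 1 stood at 6.89 CPM in TECs (95% counting interval 5.80 to 8.12). In fibroblasts of that library it stood at 1.66 CPM (1.01 to 2.56). In Z/Z 2 the Cd83 share was 1.48% of TECs against 0.544% of fibroblasts. The Psmb11 shares of Z/Z 1 and Z/Z 2 (0.882% and 1.68%) lay above the highest fibroblast share. Tbata in fibroblasts stood at 10.1 and 4.19 CPM in WT and at 1.02 and 2.50 CPM in Z/Z, and Prss16 likewise at 5.57, 3.49, 1.02 and 1.53 CPM. Droplets without a cell held Tbata at 299, 133, 35.2 and 107 CPM in WT 1, WT 2, Z/Z 1 and Z/Z 2, in the same order of libraries as the fibroblasts. Free RNA made up an estimated 1.97% to 3.28% of fibroblast counts. Its part in the fibroblast values was not tested. Enpep was different. It was found in 3.65% to 8.62% of thinned fibroblasts and passed the test there, from 26.3 and 22.7 CPM in WT to 54.0 and 40.5 CPM in Z/Z (+0.94 ± 0.21 (SE), adjusted p = 0.0456), 1 of 5 members tested against 2.94% of 13881 genes. This call was lost without any 1 of the 4 libraries (adjusted p of 0.137 to 0.322) and without shared barcodes (adjusted p = 0.111). In endothelial cells 0 of 5 members tested passed by edgeR, against 1.91% of 11360 genes, with an unadjusted p under 0.05 for Prss16 and Tbata.

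The genes whose pattern was most like each member were sought by Pearson correlation of log2(CPM + 1) over 39 sums of cluster and library, which share libraries and depth, among 10085 genes. Psmb11 was most like Prss16 (r = 0.883), followed by the chemokine gene Ccl25 (0.766) and Ada (0.740). Prss16 was most like Psmb11, then Ube4b (0.819) and Zc3h12c (0.812). Tbata followed Crip3 (0.833), Ccl25 (0.823) and Fabp5 (0.822), and Ly75 followed Tmem131l (0.878), Inpp1 (0.859) and Pdzd2 (0.829). Cd83 was led by Hebp1 (0.789), Ing1 (0.786) and Snap91 (0.784). Enpep was most like Ap2a2 (0.808) and Il34 (0.790), and its correlation with the other 5 members lay between −0.16 and 0.14.

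Other genes of antigen processing were followed over all TECs, where 9.75% of all genes rose and 11.7% fell. These sums mix classes. mTEC2-like cells held 58.9% and 60.3% of the TEC UMIs of WT 1 and WT 2, and 6.21% and 11.8% of those of Z/Z 1 and Z/Z 2. The part of this mix in the list values was not tested. Of 8 proteasome genes, 3 fell and 0 rose, with a list median of −0.67 against 0.0018 over all genes. The 3 were the activator subunits Psme1 and Psme2 (both −1.09, adjusted p = 0.0135 and 0.0128) and the constitutive subunit Psmb7 (−0.74, adjusted p = 0.0280), named because they passed. The immunoproteasome subunits Psmb8 and Psmb10 gave −0.52 and −0.91 and did not pass. Of 10 class I loading genes, B2m, the light chain of MHC class I, fell (−1.49 ± 0.19 (SE), adjusted p = 0.0101), from 3210 and 3628 CPM to 1173 and 1267 CPM, and 9 did not pass. H2-K1 (−0.62) and H2-D1 (−0.32), its heavy chain genes, were among the 9.

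Of 12 class II and lysosome genes, 5 fell and 0 rose, with a median of −0.70. They were the class II chain H2-Aa (−0.93), the peptide-editing inhibitor H2-Oa (−2.33), the class II transactivator Ciita (−1.17), the protease Ctss (−2.0) and the thiol reductase Ifi30 (−1.0). Cd74, the invariant chain (−0.67), and Ctsl, the cathepsin of cTECs (+0.29), did not pass. Of 7 autophagy genes Clec16a fell (−1.05) and 6 did not pass. Of 8 FOXN1-dependent cortical genes, Il7 (+0.93) and Pax1 (+1.09) rose, 0 fell and 6 did not pass, among them Ccl25 (−2.27, adjusted p = 0.0632). March8, the ligase that CD83 opposes, gave +0.22 and did not pass. The calls over all TECs were lost in 2 subsets of the data. Without shared barcodes 1 of 17701 genes passed, and without Z/Z 1 0 of 19812 did by edgeR, with 4544 at an unadjusted p under 0.05.

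Within cTEC-like cells, where 2.1% of 9394 genes passed against 21.5% over all TECs, 3 genes of these lists were called. B2m (−1.85, adjusted p = 0.0439) and Nlrc5, the class I transactivator (−2.29, adjusted p = 0.0300), fell, 2 of 10 class I genes. Ccl25 fell from 6290 and 4648 CPM to 765 and 1268 CPM (−2.43, adjusted p = 0.0268), although Ccl25 is also a gene by which the class was named. Of 8 proteasome genes and 11 class II genes tested, 0 passed by edgeR. Their medians were −0.57 and +0.24, beside −1.56 for the 6 members and 0.02 over all genes tested. Unadjusted p-values under 0.05 were reached by Psme1 (+1.46), Ctsl (−1.29) and H2-DMb1 (+0.96). In mTEC2-like and aaTEC1-like cells 0 genes of these lists passed by edgeR, where 0.016% and 0.00836% of all genes did. List medians there were −0.19 and +0.43 (proteasome), −0.25 and +0.08 (class I) and +0.07 and +0.64 (class II and lysosome). Over all genes the medians were 0.0022 and 0.091.

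**Figure D5:**
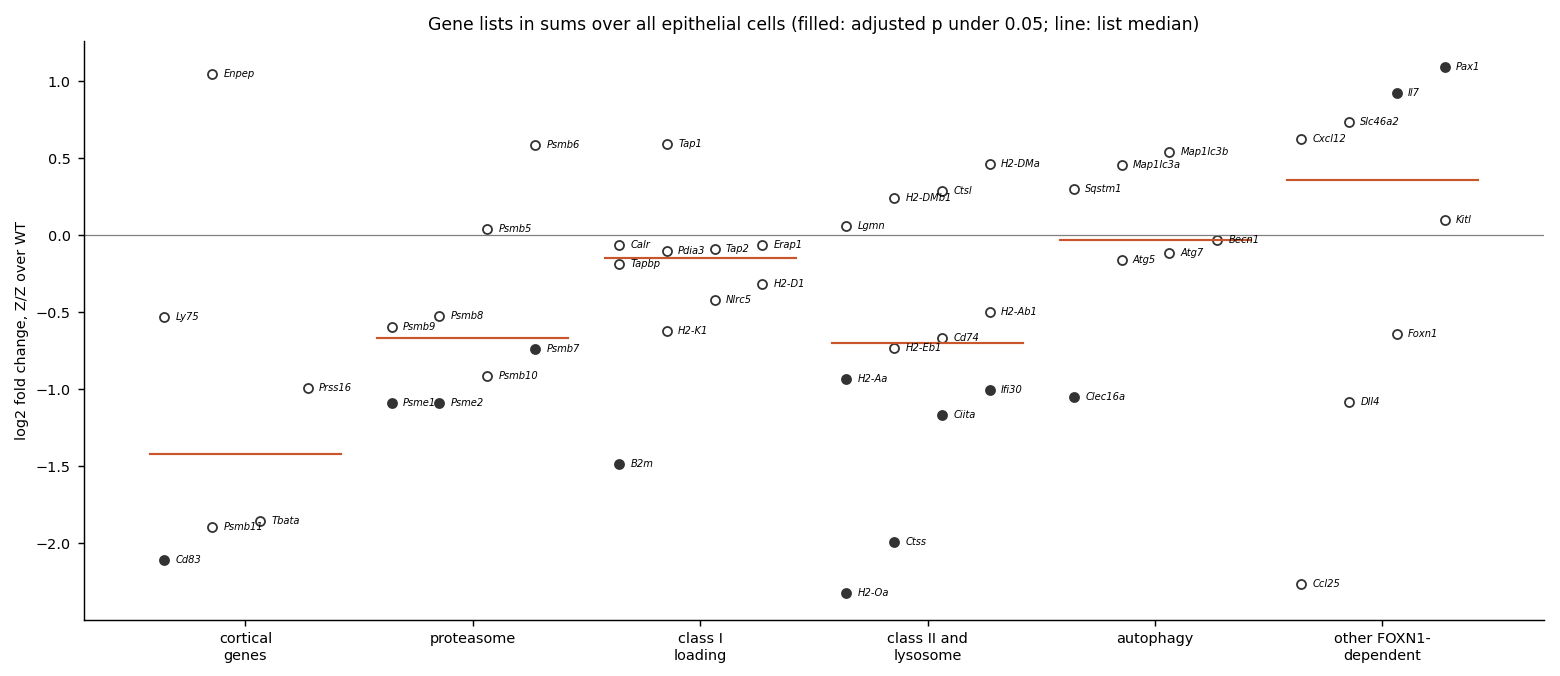
Log2 fold change of Z/Z over WT in sums over all TECs for the 6 cortical genes and the other gene lists, with 1 point per gene, filled where the edgeR adjusted p was under 0.05, and a line at each list's median. The 3 proteasome genes and 5 class II and lysosome genes that passed lie below 0, and Il7 and Pax1 lie above.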

How the data were processed

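CD45-negative thymic stroma was profiled in 4 libraries, 2 per genotype, grouped by the genotype in the labels. The authors mapped reads with Cell Ranger (version 7.01 in the submitters' notes) to mouse GRCm38.p5 (mm10). The deposited matrices hold UMI counts, 1 per gene and barcode, with no normalization. The counts include intronic reads. The deposited summaries give sequencing saturation as a percent of reads (65.2 to 95.2%). The labels give both female and male as sex and the study's text and the labels name different kit versions. No deposited column lacked a sample (0 columns).

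Cells with more than 1000 genes and under 20% mitochondrial UMIs were kept, and the 3.9% with the highest Scrublet score per library were removed, because the automatic threshold marked 1.27% of cells. This left 9846 of 10245 cells. Ribosomal protein and haemoglobin genes (94) were left out. Cells were clustered (scanpy 1.11.5, leidenalg 0.10.2, resolution 1, 35 components for all cells and 45 for TECs) with 128 genes held out, namely the members, the listed genes and all markers. Classes were named from marker scores of at least 0.6 (0.5 for aaTEC2-like cells), thresholds set after seeing the data. Clusters below them kept their numbers. A cluster of 947 cells missed the epithelial rule and was counted as TECs by a separate rule. That rule required Pdpn, Vim and H2-Aa each in a fraction of at least 0.2 of cells. Epcam had to be under 0.25, Pdgfra under 0.2 and the scores of other lineages under 0.5.

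UMI counts were summed per library and cell set and tested with edgeR 4.0.16 (R 4.3.3; TMM factors, filterByExpr, quasi-likelihood, Benjamini-Hochberg over all genes tested, threshold 0.05). SEs were derived from the F statistic. DESeq2 1.42.0 was an alternative. Sets with under 10 cells in a library were not tested, except cTEC-like cells. On simulated counts for all TECs the procedure recovered 0%, 59.7% and 94.4% of genes changed 2-fold, 4-fold and 8-fold among 18870, and for cTEC-like cells 3.28%, 48.5% and 83.1% among 9394. The simulation for all TECs changed only 61, 67 and 72 genes, at 1 dispersion, where 21.5% of genes passed in the data. Its rates therefore do not carry over to the data, in which genes changed under 2-fold also passed. Free RNA was estimated from droplets with at most 100 UMIs. Shares were compared by exact permutation over libraries after thinning to 2000 UMIs per cell in 1 random draw.

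The members and lists were chosen with earlier results of these data known. Named were the 6 members, up to 4 genes per list with the largest counts in TECs, the 3 genes most alike to each member among those with a mean of at least 10 CPM, and, chosen after their values were seen, listed genes that passed where 5 or fewer did and cTEC-like genes with an unadjusted p under 0.05. Among the genes most alike, 1 is not reported here.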

Additional observations from a re-analysis of the deposited data

Results flagged for a closer look

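In all, 5 differences between sets of TECs stood out among the genotype effects (Z/Z over WT), each given as the effect in cTEC-like cells minus the effect in the other set on the log2 scale. The effect on Enpep differed by −3.64 from that in TECs outside the cTEC-like class (edgeR, libraries as a block, adjusted p = 0.000766), and by −5.33 from that in aaTEC1-like cells (adjusted p = 0.0344). The effect on Prss16 differed by −1.54 from that outside the class (adjusted p = 0.0376). Ly75 was picked out because its Z/Z libraries, on the TMM scale, lay below the WT libraries in cTEC-like cells and above them in both of these other sets, although its unscaled levels outside the class overlapped (107 and 117 CPM in WT, 109 and 112 CPM in Z/Z). The differences were −1.35 against the TECs outside the class (adjusted p = 0.0619) and −2.63 against aaTEC1-like cells (adjusted p = 0.0747), and neither of these passed. All of them rest on 5 cTEC-like cells in WT 2, and those against aaTEC1-like cells also on 16 and 10 aaTEC1-like cells in WT. These fits were run on the full data only, without leaving out shared barcodes or any library. TECs outside the cTEC-like class were a different mix of classes in the 2 genotypes. Among all TECs, aaTEC2-like cells were 2.17% and 0% in WT 1 and WT 2, and 28.2% and 24.7% in Z/Z 1 and Z/Z 2. The part of this mix in the differences from TECs outside the class was not tested.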

How the results depend on the processing

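The first place held under the 5 alternatives run for it: 5 members were highest in cTEC-like cells at resolutions 0.5 and 2, without shared barcodes, with doublets kept and with empty-droplet RNA subtracted. Places below it moved among the named classes, and basal or goblet-like cells replaced cTEC-like cells behind aaTEC2-like cells for Enpep under each of these but the last. Of 463 alternative log2 values for 31 results, 440 kept their direction and 23 reversed. Over all TECs (1 member called) the count was 3 with no filter on low counts, 5 with cells thinned, 0 without shared barcodes, 0 without cells holding a T cell marker UMI, and 0 to 3 when 1 library was left out. Outside the cTEC-like class (2 called) it was 0 without shared barcodes and 0 to 3 with 1 library left out. Outside the aaTEC2-like class (1 called) it was 3 with no filter, 3 thinned, 0 without shared barcodes, 0 without T cell marker cells and 0 to 2 with 1 library left out. In fibroblasts (1 called) it was 3 with no filter, and 0 when thinned, without shared barcodes, with doublets kept and without WT 1, WT 2, Z/Z 1 or Z/Z 2. In aaTEC1-like cells (0 called) it was 1 with no filter and 0 to 1 with 1 library left out, and in mTEC2-like cells (0 called) 1 with no filter. In cTEC-like cells (1 called) it was 2 with DESeq2, 4 with no filter, 0 thinned, 3 with more than 500 genes per cell, 4 with doublets kept, 4 at resolution 0.5, 2 at resolution 2, and 0 to 6 with 1 library left out. The deviations of same-numbered libraries had a correlation of −0.0841 over 18870 genes. With 2 libraries per genotype, that value cannot show whether same-numbered libraries share a batch. A replicate block gave 0 members called over all TECs, 3 outside the cTEC-like class, 0 outside the aaTEC2-like class and 2 in cTEC-like cells, and it changed none of the other counts of members called.

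Counts over all genes moved more. Over all TECs (4054 called) 2364 passed with the block, 2249 without T cell marker cells and 1 without shared barcodes. Outside the cTEC-like class (4328) 1964, 2564 and 0 did, with 2735 when thinned, and outside the aaTEC2-like class (3400) 2238 when thinned, 1487 without T cell marker cells and 1 without shared barcodes. With no filter on low counts 1324 passed in fibroblasts (408), 579 in cTEC-like cells (197), 301 in aaTEC1-like cells (1) and 1293 in mTEC2-like cells (2), and DESeq2 called 87 and 212 in the last pair. With 1 library left out, counts ran from 0 (without Z/Z 1) to 939 (without WT 2) in cTEC-like cells, with 427 without WT 1 and 48 without Z/Z 2, and from 24 to 571 in aaTEC1-like cells, with 571 without WT 1 and 567 without WT 2. Without Z/Z 1 edgeR also called 0 genes over all TECs, outside either class and in fibroblasts, and without Z/Z 2 1265, 1384, 732 and 0.

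The cause of the reversed values was not tested. They were Ly75 over all TECs without T cell marker cells (0.0387), Enpep outside the aaTEC2-like class without shared barcodes (−0.0139), Tbata in aaTEC1-like cells thinned (−0.53), Prss16 in cTEC-like cells without shared barcodes (0.0191) and Ly75 in mTEC2-like cells at resolution 2 (0.0719). Psmb11 outside the cTEC-like class was 0.0506 with no filter, 0.33 with empty-droplet RNA subtracted, 0.41 without shared barcodes, 0.33 without T cell marker cells and 0.0292 with more than 500 genes. In mTEC2-like cells Prss16 was −0.35 without shared barcodes and −0.0924 with more than 500 genes, and Cd83 was 0.77 without T cell marker cells, 0.68 with more than 500 genes and 0.76 with doublets kept. With 1 library left out the ranges were −2.17 to 0.18 for Prss16 over all TECs, −0.55 to 0.59 for Psmb11 outside the cTEC-like class, −0.0863 to 1.41 for Enpep outside the aaTEC2-like class, −0.0352 to 6.87 for Cd83 in aaTEC1-like cells, and −0.27 to 0.64 for Prss16 and −0.63 to 0.26 for Cd83 in mTEC2-like cells. The share of TECs with a Ly75 UMI ranged from −1.94 to 0.976 percentage points. With 1 library left in a group, that library is assumed to vary like the others. Fits without T cell marker cells were not run for cTEC-like and aaTEC1-like cells, nor fits of aaTEC1-like cells without shared barcodes, at resolution 2, with more than 500 genes, under 10% mitochondrial UMIs or with doublets kept, because the class was then absent or under 10 cells in a library. DESeq2 gave no adjusted p for the members in endothelial cells, and none of them passed the filter there when thinned.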
